A study of Mus musculus with 12 samples.

Results

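The miR-181 family is a set of vertebrate microRNAs that share one seed. In the mouse it is made from 6 precursor hairpins: mmu-mir-181d and mmu-mir-181c, each from 1 gene, the copies mmu-mir-181b-1 and mmu-mir-181b-2, and mmu-mir-181a-2 with its copy mmu-mir-181a-1. They were taken by name, and all 6 were present among the 589 precursors measured in cerebral cortex. The members follow from their names, but the family was singled out as the most abundant of the cortex, with earlier results of these data known.

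Small RNA was sequenced from the cortex of C57BL/6J mice that were wild-type (WT) or lacked Toll-like receptor 4 (TLR4-KO), the receptor of the innate immune system that recognizes bacterial lipopolysaccharide. The WT and TLR4-KO groups drank water, and the WT + EtOH and TLR4-KO + EtOH groups drank water with 10% (v/v) alcohol, all for 5 months from an age of 7 weeks. The mice were female according to the study's methods, and the knockout was not limited to one cell type. Each group had 3 libraries, each library was a pool of the cortices of 3 mice, and 36 mice entered the 12 libraries. The spread given for a group is therefore that of its pools, and the spread of single mice is not seen. The libraries hold no messenger RNA, so that the loss of Tlr4 itself was not checked here.

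A precursor hairpin is cut into a short duplex, and the mature strand that stays in the Argonaute complex pairs with target messenger RNAs through its seed, which lowers their translation or stability. Precursors of the same family that share a seed can therefore act on overlapping targets. The miR-181 family is best known from lymphocyte development, where miR-181a tunes the signal of antigen receptors, and its members are also expressed in neurons and glia and have been studied in glial inflammation. In the study's own RT-qPCR, miR-181a and miR-181b served as internal controls, so that their steadiness between groups matters for what was scaled to them.

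The 4 mature 5p strands are shown because they make clear which reads the members can and cannot be told apart by. They are given 5′ to 3′ from RefSeq (GRCm38.p6), in lower case with the seed, bases 2 to 8, in capitals. All 6 precursors matched an entry.
miR-181a-5p: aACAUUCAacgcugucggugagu
miR-181b-5p: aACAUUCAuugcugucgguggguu
miR-181c-5p: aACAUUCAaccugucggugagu
miR-181d-5p: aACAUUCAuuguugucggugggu

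The capital letters are identical in all 4 strands, and among the 1679 mature mouse names of the RefSeq table no name outside these 4 carried the same seed. The strands differed only behind the seed. Counted from 1 at the 5′ end of miR-181a-5p, miR-181b-5p differed by A9U, C10U and A21G and had 1 more base at its 3′ end. Against the same strand, miR-181d-5p differed by A9U, C10U, C12U and A21G. The strand of miR-181c-5p had no substitution and lacked the base at position 11, so that 22 of the 23 bases of miR-181a-5p were kept. Between miR-181b-5p and miR-181d-5p there was 1 substitution, C12U counted along miR-181b-5p, beside the last base, which miR-181d-5p lacks.

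Both copies of miR-181a give the same 5p strand, and so do both copies of miR-181b. Among mature strands, the copies can be told apart only by the opposite, 3p strands, which are shown for that reason with bases 2 to 8 in capitals.
miR-181a-1-3p: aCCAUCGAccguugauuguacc
miR-181a-2-3p: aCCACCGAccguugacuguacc
miR-181b-1-3p: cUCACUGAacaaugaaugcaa
miR-181b-2-3p: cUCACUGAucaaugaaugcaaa

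Of the 22 bases of miR-181a-1-3p, 20 were identical in miR-181a-2-3p, and 20 bases were also identical between the 3p strands of both miR-181b copies. How reads of the shared 5p strand were divided between copies is not given in the sources used here. The difference between the values of 2 copies is therefore uncertain as a measure of which locus was transcribed.

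The 6 hairpins lie in 3 pairs (GRCm38, RefSeq and GENCODE annotation). On chromosome 1, mmu-mir-181a-1 (137966455 to 137966541, plus strand) is followed after 97 bases by mmu-mir-181b-1 (137966639 to 137966718). Both lie within the noncoding gene Gm4258 on the same strand, outside its exons, and mmu-mir-181b-1 lies wholly in the exon of the lincRNA A430106G13Rik, which mmu-mir-181a-1 overlaps in part. On chromosome 2, mmu-mir-181a-2 (38852735 to 38852810) and mmu-mir-181b-2 (38853830 to 38853918) are 1019 bases apart on the plus strand, opposite to an intron of the nuclear receptor gene Nr6a1. On chromosome 8, mmu-mir-181d (84178716 to 84178787) and mmu-mir-181c (84178873 to 84178961) are 85 bases apart on the minus strand, in an intron of Nanos3, a gene known from germ cells.

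The values are the normalized scores that the study deposited. They have no unit, rise with a precursor's abundance, and follow its rank in the library closely, since the scores at a given rank were nearly alike in all libraries and the top value was 135 in each. They were not alike at the lower end, where the number of precursors at 0 differed between libraries. A difference between groups is a difference of scores and is not a fold change. Depth is unknown from these values. Of the 589 precursors, 190 were above 0 in all 12 libraries, all 6 members among them. Another 265 were at 0 in all 12 libraries and could be neither called nor separated between groups. Every share of all precursors given below counts them, so that it is lower than the share among detected precursors. Between 216 and 270 precursors were above 0 per library and the replicate 1 library held the most in each group. Neuron-enriched precursors were present: all 7 of miR-124, miR-128 and miR-138 were above 0 in every library, as were all 3 vascular precursors. None of the 7 differed between groups at an adjusted p under 0.05. All 7 had a higher mean in WT + EtOH than in WT, by 0.704 to 9.29. Their summed score was 365 to 372 in WT and 390 to 410 in WT + EtOH, and WT overlapped with both TLR4-KO groups.

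miR-181a led the table, which was known when the family was chosen. mmu-mir-181a-1 had the score 135 and rank 1 in each of the 12 libraries, and mmu-mir-181a-2 had the score 124 and rank 2 in each. The ratio of the scores was therefore 1.09 in every library, and the SD of both over the libraries was 0. This SD is a property of the normalization, which gives the highest precursor of each library the same score: as long as the order holds, no change in the amount of miR-181a, up or down, could be seen in this table. Only the order itself was measured, and it was the same with and without alcohol and in both genotypes.

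The remaining members stood well below. By their mean score over the 12 libraries, mmu-mir-181b-2 was 19th (91.1), mmu-mir-181c 21st (89.6), mmu-mir-181b-1 27th (86.3) and mmu-mir-181d 83rd (52.7). miR-181c thus did not stand low with miR-181d, although both come from the same short stretch of chromosome 8, and it was above mmu-mir-181b-1 in 11 of 12 libraries. Its rank lay between 20 and 28, against 63 to 108 for mmu-mir-181d. The order a-1, a-2, b-2, c, b-1, d was found in 9 libraries. In WT replicate 1 mmu-mir-181b-1 was above mmu-mir-181c, and in WT + EtOH replicate 3 and TLR4-KO + EtOH replicate 3 mmu-mir-181c was above mmu-mir-181b-2. mmu-mir-181b-2 was above mmu-mir-181b-1 in 12 of 12 libraries. The means of the neighbours mmu-mir-181b-2 and mmu-mir-181c differed by less than the SD of either over the libraries, so that their order is not firm.

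**Figure D1:**
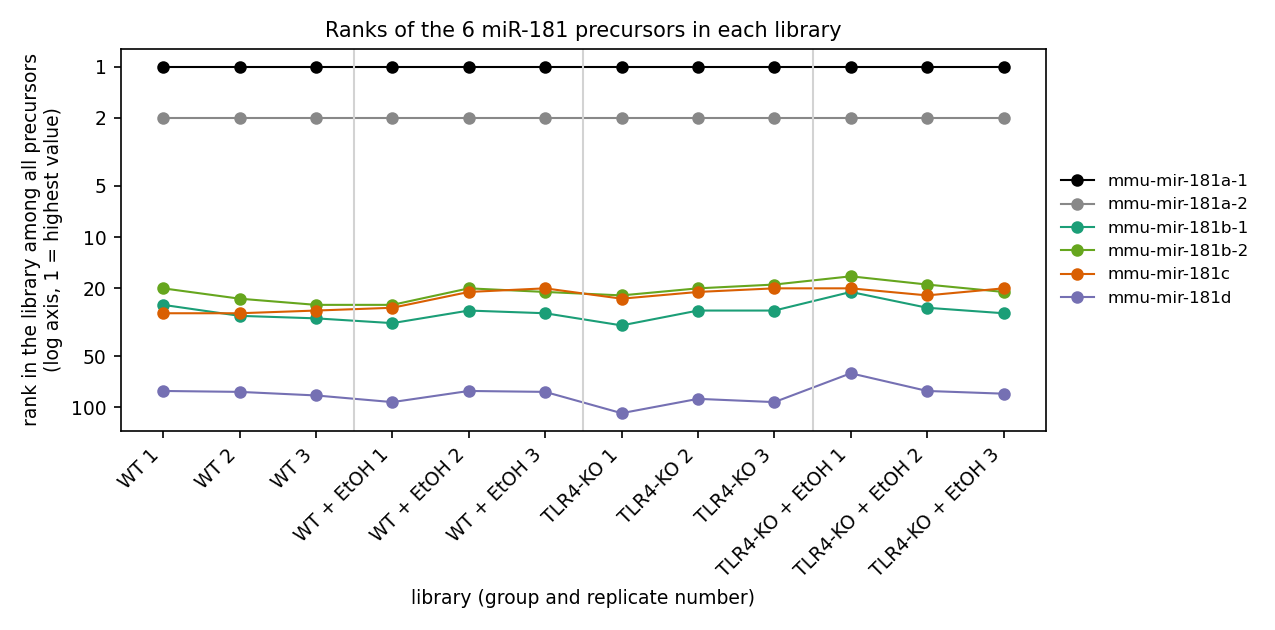
Rank of each of the 6 miR-181 precursors (log axis, 1 is the highest score of 589 precursors) in the 12 libraries, 3 per group, with grey lines between the groups. Both miR-181a copies keep ranks 1 and 2, both miR-181b copies and miR-181c lie between ranks 17 and 33, and miR-181d lies between 63 and 108.

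The steadiness of the members was read against precursors of like score. Over the 12 libraries the SD of mmu-mir-181b-2 was 1.50, that of mmu-mir-181c 2.28, that of mmu-mir-181b-1 2.32 and that of mmu-mir-181d 4.14, where the median over the 190 precursors above 0 in all libraries was 4.51. Among the 18 precursors nearest to mmu-mir-181b-2 in mean score, none had a smaller SD. 4 of 18 neighbours had a smaller SD than mmu-mir-181c, and 4 of 18 than mmu-mir-181b-1. For mmu-mir-181d it was 11 of 20, so that this member varied as its neighbours did. These counts are descriptions and were not tested. The study chose miR-181a and miR-181b as controls because their levels were stable in its own samples. The low SD of mmu-mir-181b-2 is therefore not separate support for that choice.

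Next, 6 contrasts were made for each member with limma over all 589 precursors: alcohol against water in each genotype, TLR4-KO against WT with and without alcohol, TLR4-KO + EtOH against WT, and the difference of both alcohol effects. The 3 comparisons against WT share the WT libraries. No member passed an adjusted p of 0.05 (Benjamini-Hochberg over all precursors) in any of them. Of all precursors, 1.70% passed in WT + EtOH against WT, 2.55% in TLR4-KO against WT, 0.340% in TLR4-KO + EtOH against TLR4-KO, 0.509% in TLR4-KO + EtOH against WT + EtOH, 1.87% in TLR4-KO + EtOH against WT and 1.19% for the difference of the alcohol effects. At an unadjusted p under 0.05, the count of members was 1, 1, 1, 0, 1 and 2 of 6 in the same order, where all precursors together had 12.6%, 12.2%, 6.96%, 4.58%, 10.7% and 12.6%. Without overlap between the libraries, 1 member was higher and 0 lower in WT + EtOH against WT (7.30% and 9.51% of all precursors), 1 and 1 in TLR4-KO against WT (7.13% and 8.49%), 1 and 0 in TLR4-KO + EtOH against TLR4-KO (3.90% and 2.21%), 0 and 0 in TLR4-KO + EtOH against WT + EtOH (2.38% and 2.55%), and 1 and 0 in TLR4-KO + EtOH against WT (7.81% and 8.49%). The shares of the members were thus those of 1 or 2 single precursors. The member that was higher against WT was miR-181c in each of the 3 comparisons, the member that was lower in TLR4-KO against WT was miR-181d, and the member that was higher with alcohol in TLR4-KO mice was miR-181d. A single moderated F test over the 4 groups also called no member, against 2.38% of all precursors, with 1 member at an unadjusted p under 0.05 against 12.7%.

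miR-181c was the member with the clearest separation between groups. Its score was 86.1, 86.1 and 86.9 in the WT libraries. It was 87.7, 91.0 and 91.7 in WT + EtOH. It was 90.0, 91.0 and 91.7 in TLR4-KO. In TLR4-KO + EtOH it was 91.7, 90.3 and 91.7. All 3 WT libraries were thus below each of the other 9 libraries, and the other 3 groups overlapped with one another. This pattern was found in 17 of the 589 precursors (2.89%), of which only 324 were above 0 in any library. In ranks, mmu-mir-181c went from 27 or 28 in WT to between 20 and 26 elsewhere, so that the whole separation covered a few places of the order. Since the scores follow rank, a member also gains places when its neighbours fall. By mean score the 3 miR-9 precursors held places 22 to 24, directly below mmu-mir-181c at 21. All their differences from WT lay between −6.44 and −4.74. Not every neighbour fell: mmu-mir-30c-1, next above mmu-mir-181b-2, averaged 90.2 in WT and 93.5 over the other 9 libraries. The part of such shifts in the places of mmu-mir-181c was not tested.

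The mean of mmu-mir-181c was 86.4 ± 0.480 in WT and 90.9 ± 0.870 in TLR4-KO, and with alcohol it was 90.1 ± 2.12 in WT + EtOH and 91.2 ± 0.786 in TLR4-KO + EtOH (SD, n = 3 each). Alcohol in WT mice went with a score higher by 3.76 (SE 0.990, 95% interval 1.49 to 6.03), at an unadjusted limma p of 0.00492 and an adjusted p of 0.121. The libraries did not overlap, which held in this direction for 7.30% of all precursors. TLR4-KO was above WT by 4.51 (2.24 to 6.78), at an unadjusted limma p of 0.00170 and an adjusted p of 0.0569, again with no overlap, as for 7.13% of precursors. TLR4-KO + EtOH was above WT by 4.86 (2.59 to 7.13), with an adjusted p of 0.0521 and no overlap, as for 7.81%. By p, mmu-mir-181c was 24th, 17th and 12th of the 589 precursors in these comparisons. None of the 3 differences passed the threshold of 0.05 on the adjusted p.

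Within TLR4-KO mice the alcohol difference of mmu-mir-181c was 0.352 (95% interval −1.92 to 2.62, adjusted p = 1 in limma). Between the genotypes under alcohol it was 1.10 (−1.17 to 3.37, adjusted p = 1 in limma). The difference of both alcohol effects was −3.41 (SE 1.40, interval −6.62 to −0.197), with an unadjusted limma p of 0.0400 and an adjusted p of 0.361. An alcohol difference in WT that is absent in TLR4-KO was therefore not established for miR-181c.

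The comparisons of miR-181c against WT lie so near the threshold that single settings decide the call. Over 22 alternative settings the score of mmu-mir-181c stayed above WT in all 3 comparisons, and its adjusted p in limma ranged from 0.00746 to 0.195 in TLR4-KO, from 0.0114 to 0.356 in WT + EtOH and from 0.00630 to 0.377 in TLR4-KO + EtOH. It passed in 7, 2 and 8 of them, respectively. One library weighed most: WT + EtOH replicate 1 had the lowest score outside WT (87.7), and without it mmu-mir-181c was above WT by 4.97 in WT + EtOH with an adjusted limma p of 0.0114. The adjusted p was then 0.00746 for TLR4-KO against WT and 0.00630 for TLR4-KO + EtOH, groups that do not hold this library and whose spread is estimated with it. Without WT + EtOH replicate 3 the adjusted p was 0.0386 for TLR4-KO and 0.0391 for the alcohol-treated knockout. When all 4 replicate 1 libraries were left out, the adjusted p was 0.0377 for TLR4-KO, 0.0444 for WT + EtOH and 0.0480 for TLR4-KO + EtOH. On a scale of ranks it was 0.140, 0.317 and 0.377 in the same order. With only precursors above 0 in at least 3 libraries, the SE of mmu-mir-181c rose from 0.990 to 1.49. The adjusted limma p was then 0.0891 for TLR4-KO, 0.142 for WT + EtOH and 0.102 for TLR4-KO + EtOH.

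**Figure D2:**
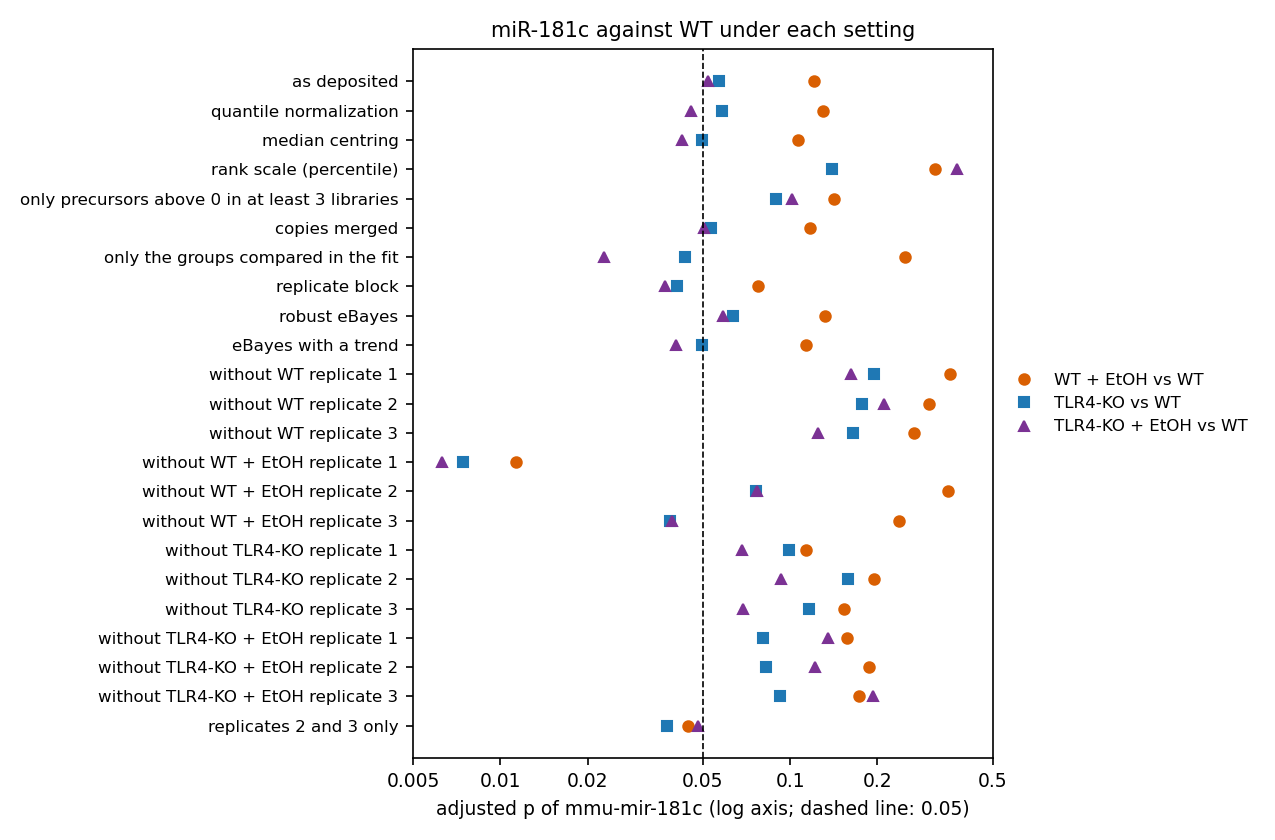
Adjusted p of mmu-mir-181c (log axis) in the 3 comparisons that share the WT libraries, for the scores as deposited and for 22 alternative settings, with a dashed line at 0.05. The points lie on both sides of the line: of the 22 settings 7 pass for TLR4-KO, 2 for WT + EtOH and 8 for TLR4-KO + EtOH.

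The summed scores of precursors of blood cells also separated WT from the other groups, though single precursors differed in this. The erythroid sum was lower outside WT and the leukocyte sum higher. Such a separation was not particular to blood cells. The 3 miR-26 precursors summed to 292 to 293 in WT and at most 277 elsewhere. The 3 miR-9 precursors summed to 281 in WT and at most 270 elsewhere. The sums of the miR-30, vascular, oligodendrocyte and choroid plexus precursors overlapped with WT. The summed score of the 3 erythroid precursors was 151 to 163 in WT and 131 to 142 in TLR4-KO, and with alcohol 142 to 150 (WT + EtOH) and 127 to 138 (TLR4-KO + EtOH). Of the 3, mmu-mir-451a, made almost only in red cells, differed from WT by −17.6 in TLR4-KO, −14.6 in WT + EtOH and −20.9 in TLR4-KO + EtOH, each at an adjusted limma p under 0.05. The others, mmu-mir-144 and mmu-mir-486a, did not pass and did not share 1 direction. Their differences were −4.13 and 0.486 in TLR4-KO, −0.383 and 1.20 in WT + EtOH, and −4.13 and −0.847 in TLR4-KO + EtOH. The 3 leukocyte precursors summed to 87.3 to 96.6 in WT, 98.9 to 105 in TLR4-KO, 106 to 115 in WT + EtOH and 97.3 to 104 in TLR4-KO + EtOH. Of them, mmu-mir-150, abundant in lymphocytes, rose by 7.41 in WT + EtOH and 9.28 in TLR4-KO, and mmu-mir-223, the defining precursor of myeloid cells, was at 0 in all 12 libraries. None of the 3 vascular, 2 oligodendrocyte and 3 choroid plexus precursors passed in a comparison against WT. By unadjusted limma p, all 3 vascular precursors were under 0.05 for alcohol in WT mice. Against WT, each knockout group had 2 of these 3 under 0.05. The vascular differences did not share 1 direction and reached −6.58 and 8.09. No oligodendrocyte or choroid plexus precursor had an unadjusted limma p under 0.05 against WT. The part of these cells in the values of miR-181c was not tested. In a bulk sample fewer cells of a type and less of an RNA per cell cannot be told apart.

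miR-181d was the lowest and most variable member. Its score was 54.3, 53.9 and 52.1 in WT. It was 49.4, 54.1 and 53.9 in WT + EtOH. It was 44.7, 50.6 and 49.2 in TLR4-KO. In TLR4-KO + EtOH it was 62.0, 54.3 and 53.2. The 3 TLR4-KO libraries were below all WT libraries and below all TLR4-KO + EtOH libraries, and TLR4-KO overlapped WT + EtOH only through the low replicate 1 of the latter.

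The mean of mmu-mir-181d was 53.4 ± 1.20 in WT and 48.2 ± 3.10 in TLR4-KO, and with alcohol 52.5 ± 2.69 in WT + EtOH and 56.5 ± 4.76 in TLR4-KO + EtOH (SD, n = 3 each). Alcohol in TLR4-KO mice went with a score higher by 8.34 (SE 2.56, 95% interval 2.47 to 14.2), at an unadjusted limma p of 0.0111 and an adjusted p of 0.407, with no overlap, as for 3.90% of precursors. TLR4-KO minus WT was −5.27 (−11.1 to 0.603, adjusted p = 0.480 in limma), with no overlap, as for 8.49% of precursors in this direction. Both values rest in part on the replicate 1 libraries, which hold the lowest score in TLR4-KO and the highest in TLR4-KO + EtOH. Without those of all 4 groups they were 3.87 and −3.08.

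In WT mice the alcohol difference of mmu-mir-181d was −0.970 (−6.84 to 4.90, adjusted p = 1 in limma). The difference of both alcohol effects was 9.31 (SE 3.62, interval 1.0 to 17.6), at an unadjusted limma p of 0.0322 and an adjusted p of 0.337. TLR4-KO + EtOH minus WT + EtOH was 4.04 (−1.83 to 9.91) and TLR4-KO + EtOH minus WT was 3.07 (−2.80 to 8.94), both with an adjusted limma p of 1. The first of these was 1.31 without TLR4-KO + EtOH replicate 1 and −0.239 without all replicate 1 libraries. A difference of miR-181d between groups was thus not established, and the intervals leave room for several units of score in either direction.

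miR-181b, the other internal control, overlapped between every pair of groups in both copies. For mmu-mir-181b-1 the score was 88.7, 85.2 and 84.6 in WT. It was 83.3, 86.9 and 86.1 in WT + EtOH. It was 82.4, 86.9 and 86.9 in TLR4-KO. In TLR4-KO + EtOH it was 91.0, 87.7 and 86.1. No group stood apart, and replicate 1 was the highest library in WT and TLR4-KO + EtOH and the lowest in the other 2 groups. The mean was 86.1 ± 2.23 in WT and 85.4 ± 2.60 in TLR4-KO, and with alcohol 85.4 ± 1.91 in WT + EtOH and 88.3 ± 2.50 in TLR4-KO + EtOH (SD, n = 3 each).

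For mmu-mir-181b-2 the score was 91.7, 90.0 and 88.7 in WT. It was 88.7, 91.7 and 91.0 in WT + EtOH. It was 90.3, 91.7 and 92.4 in TLR4-KO. In TLR4-KO + EtOH it was 93.7, 92.4 and 91.0. The groups overlapped here too, within a range of 5.02 over all 12 libraries. Its mean was 90.1 ± 1.50 in WT and 91.5 ± 1.06 in TLR4-KO, and with alcohol 90.5 ± 1.56 in WT + EtOH and 92.4 ± 1.37 in TLR4-KO + EtOH (SD, n = 3 each).

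The differences of miR-181b were small and passed no test. For mmu-mir-181b-1 the alcohol difference was −0.724 in WT and 2.84 in TLR4-KO (SE 1.86 each, adjusted p = 1 in limma), and TLR4-KO minus WT was −0.731. For mmu-mir-181b-2 the alcohol difference was 0.346 in WT and 0.904 in TLR4-KO (SE 1.11 each), and TLR4-KO minus WT was 1.36, with an adjusted limma p of 0.908 for the last. The widest difference of mmu-mir-181b-2 was 2.26, in TLR4-KO + EtOH against WT, with an adjusted limma p of 0.563. Leaving out single libraries turned the sign of the difference against WT for mmu-mir-181b-1 in WT + EtOH and TLR4-KO and for mmu-mir-181b-2 in WT + EtOH. Such values do not show that miR-181b was equal in the groups, and the interval of the alcohol difference in WT is drawn for both copies in the plot of differences.

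**Figure D3:**
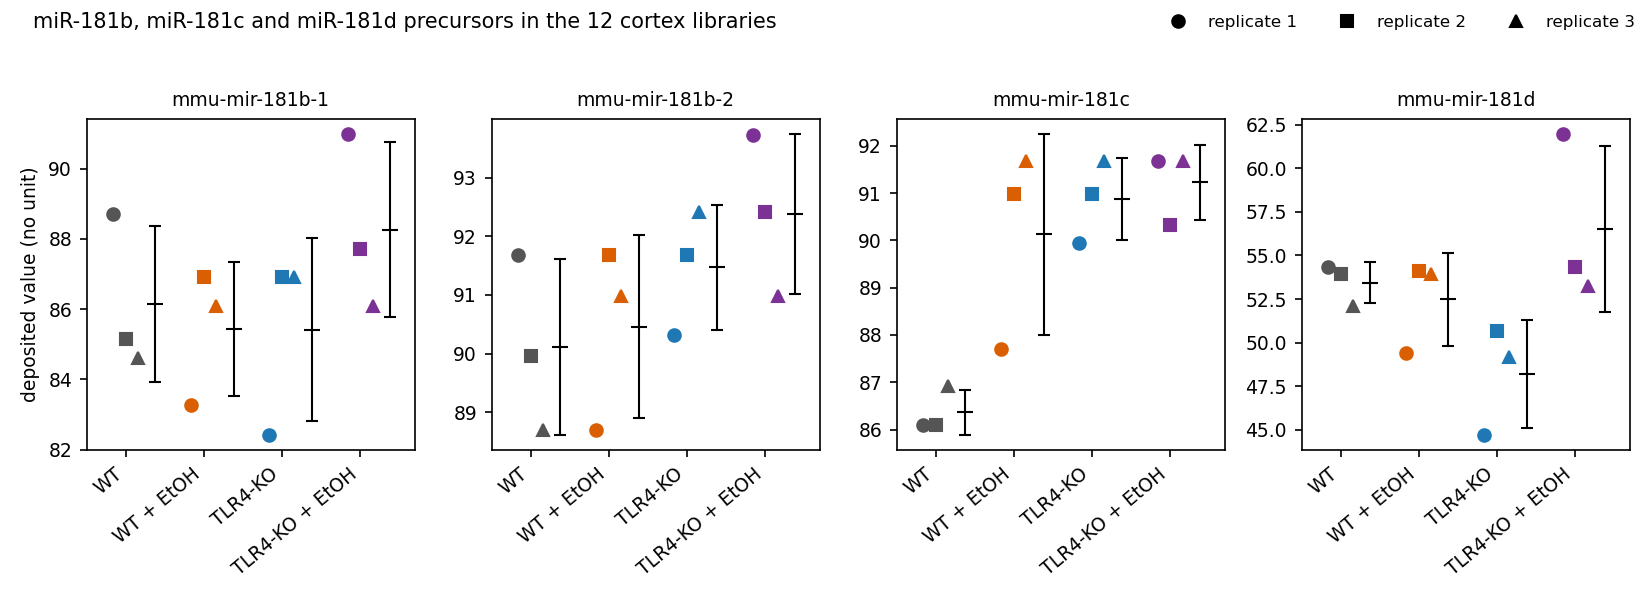
Deposited score of the 4 members that vary, by group, with a separate vertical axis for each member that does not start at 0. Circles, squares and triangles are replicates 1, 2 and 3, and the black bars are the mean ± SD of the 3 libraries. The 3 WT libraries of miR-181c (86.1 to 86.9) lie below all others, and TLR4-KO has the lowest mean for miR-181d (48.2), while the groups overlap for both miR-181b copies.

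**Figure D4:**
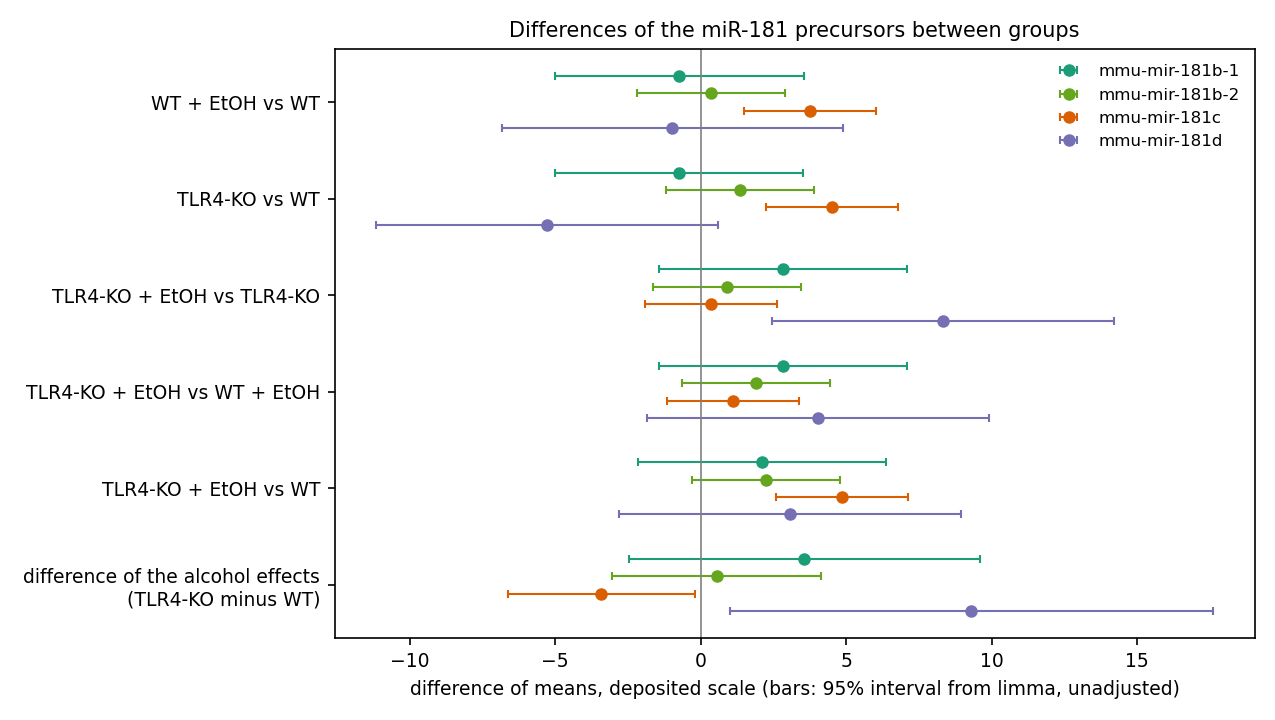
Difference of group means on the score scale for the 4 varying members in 6 contrasts, with unadjusted 95% intervals from limma. The intervals that leave out 0 are those of miR-181c in the 3 comparisons against WT and in the difference of the alcohol effects, and those of miR-181d in TLR4-KO + EtOH against TLR4-KO and in the difference of the alcohol effects.

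Members were also compared within a library. Since the scores follow rank, such a gap adds no control for shifts of a whole library. A member that passes another in the order can also move both scores. mmu-mir-181c minus the mean of both miR-181b copies was −1.76 ± 2.20 in WT and 2.43 ± 1.01 in TLR4-KO, and with alcohol 2.18 ± 0.829 in WT + EtOH and 0.908 ± 1.99 in TLR4-KO + EtOH (SD, n = 3 each). The WT libraries, at −4.10, −1.46 and 0.274, were below every library of WT + EtOH and TLR4-KO, where the lowest gap was 1.69, and overlapped with TLR4-KO + EtOH. Measured against miR-181b, miR-181c thus lay higher than in WT without overlap in WT + EtOH and TLR4-KO, where its own score was already without overlap.

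The distance of mmu-mir-181c from its neighbour on chromosome 8, mmu-mir-181d, was 32.9 ± 1.68 in WT and 42.7 ± 2.46 in TLR4-KO, and with alcohol 37.6 ± 0.742 in WT + EtOH and 34.7 ± 4.50 in TLR4-KO + EtOH. The WT, WT + EtOH and TLR4-KO libraries formed 3 ranges without overlap, 31.8 to 34.8, 36.9 to 38.3 and 40.3 to 45.3, and TLR4-KO + EtOH ranged from 29.7 to 38.4 across the first and the second. The gap between the miR-181b copies was 3.96 ± 0.916 in WT and 6.05 ± 1.64 in TLR4-KO, and with alcohol 5.03 ± 0.354 in WT + EtOH and 4.11 ± 1.20 in TLR4-KO + EtOH. These gaps use the same scores as the contrasts above and were not tested. How often other pairs of precursors separate the groups in this way was not counted.

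**Figure D5:**
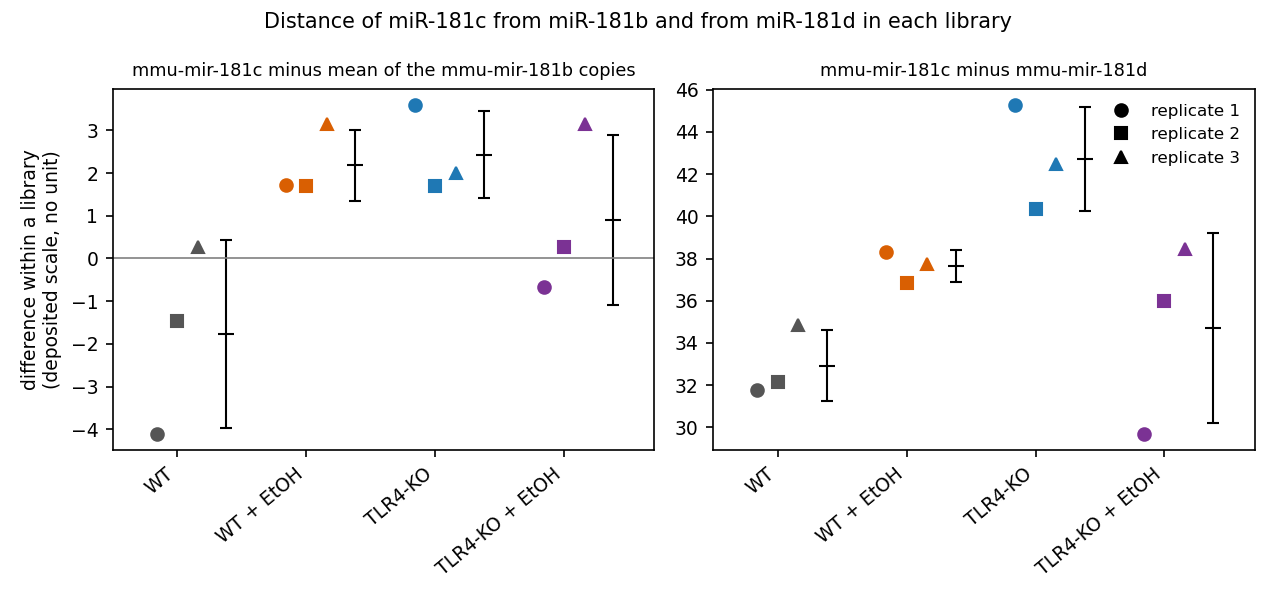
Score of miR-181c minus the mean of both miR-181b copies (left) and minus miR-181d (right) within each library, by group, with separate vertical axes. Circles, squares and triangles are replicates 1, 2 and 3, and the black bars are the mean ± SD. On the left the WT libraries reach at most 0.274, and on the right TLR4-KO lies highest, at 40.3 to 45.3.

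How the members varied together was described by their correlation, which cannot be given for both miR-181a copies with their fixed scores. Over the 12 libraries, Pearson's r was 0.855 between both miR-181b copies, which lie on different chromosomes and share their 5p strand. It was 0.827 between mmu-mir-181b-1 and mmu-mir-181d and 0.534 between mmu-mir-181b-2 and mmu-mir-181d, whose 5p strands differ by 1 substitution from that of miR-181b. Between mmu-mir-181c and mmu-mir-181d, which lie 85 bases apart, it was 0.107. For mmu-mir-181c it was 0.299 with mmu-mir-181b-1 and 0.610 with mmu-mir-181b-2. The points share libraries, group differences and one normalization, so that these values are descriptions only.

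Among the 184 precursors outside the family that were above 0 in all libraries, the ones most like mmu-mir-181c over the 12 libraries were mmu-mir-30c-1 and mmu-mir-30c-2 (Pearson's r 0.910 for both) and mmu-mir-125a (0.872). For mmu-mir-181d they were mmu-mir-127 (0.970), mmu-mir-411 (0.937) and mmu-mir-146a (0.930), of which mmu-mir-127 and mmu-mir-411 come from the imprinted Dlk1-Dio3 region. For mmu-mir-181b-1 they were mmu-let-7e (0.938), mmu-mir-154 (0.857) and mmu-mir-411 (0.850). For mmu-mir-181b-2 they were mmu-let-7d (0.806), mmu-let-7e (0.782) and mmu-mir-125b-1 (0.672). The lists of b-1 and d share mmu-mir-411, and those of b-1 and b-2 share mmu-let-7e.

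Other abundant families of the cortex were set beside miR-181 for the comparisons against WT. In WT + EtOH the differences were −11.0 to −5.99 for the 3 miR-26 precursors and −5.96 to −4.74 for the 3 miR-9 precursors, against −0.970 to 3.76 for the 6 miR-181 precursors. All 3 miR-26 and all 3 miR-9 precursors had an unadjusted limma p under 0.05 in that comparison, and none of them an adjusted p under 0.05. In TLR4-KO against WT the differences were −12.0 to −7.19 for miR-26, −6.05 to −5.50 for miR-9 and −5.27 to 4.51 for miR-181. The 6 miR-30 precursors ranged from −7.23 to 2.49 in WT + EtOH and from −8.53 to 3.06 in TLR4-KO, and none passed. The median difference was 0 for miR-181 in both comparisons, with both miR-181a copies held at 0 by the normalization. It was also 0 over all 589 precursors, of which 265 were at 0 in every library and could have no other difference. No test compared the families with one another.

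Of 11 precursors of other microRNAs linked to Toll-like receptor signalling, 1 passed at an adjusted limma p under 0.05 in the comparisons against WT. It was mmu-mir-125b-2, whose mean score came directly below that of mmu-mir-181a-2 and which was higher by 4.36 in TLR4-KO, 4.77 in WT + EtOH and 4.56 in TLR4-KO + EtOH. The other 10 did not pass, mmu-mir-223 among them at 0 throughout. By unadjusted limma p, 6, 4 and 4 of the 11 were under 0.05 in the same order, where all precursors together had 12.2%, 12.6% and 10.7%. The 3 miR-9 precursors belong to this list and were under 0.05 in each of these comparisons. The median difference was −5.50, −4.74 and 0, and the medians other than 0 were values of a miR-9 precursor.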

How the data were processed

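Small RNA from pooled mouse cortex was sequenced in 12 libraries, 3 in each of 4 groups, and groups and replicate numbers were taken from the sample titles. The authors removed adapters with Cutadapt, aligned the reads to collections of non-coding RNA with Bowtie (version 2.2.5) and TopHat, discarded poor alignments, and scaled the counts with TMM, the trimmed mean of M values. The submitters' processing notes name the build GRCm38, and the miRBase release is not given in the sources used here. The deposited values are a score with no stated unit, which the authors brought to nearly the same distribution in every library, with the same top values and a number of zeros that differs. The step that did this is not given in the sources used here. The study tested counts in a negative binomial model. Since the scores are not counts, a linear model took its place: limma 3.58.1 in R 4.3.3, with 1 mean per group over all 12 libraries, default eBayes, two-sided, Benjamini-Hochberg adjustment over 589 precursors and a threshold of 0.05. limma estimated the spread with 8.31 degrees of freedom, of which 0.308 came from the other precursors. The script was tested on simulated data. Deviations from the group means of libraries with the same replicate number had a correlation over 0.1 in every pair (0.133, 0.101 and 0.153) only between TLR4-KO and TLR4-KO + EtOH, and the labels do not say what the numbers mark.

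Depth is unknown from the scores, so that no counting interval was given. The labels do not say that libraries of a group are more than separate pools, and p-values measure the spread between them. The 6 members were all named, and for each varying member the 3 precursors with the highest Pearson's r outside the family. The comparison families, the Toll-like receptor list and the cell type markers were lists of names. Members and lists were chosen with earlier results of these data known. Alternatives covered the normalization, the scale, a filter for precursors above 0 in at least 3 libraries, copies merged, the groups in the fit, a replicate block, the variance model and each library left out. Leaving out all replicate 1 libraries was added after seeing the data. Mature sequences came from RefSeq and were aligned with Biopython 1.88.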

Additional observations from a re-analysis of the deposited data

Results flagged for a closer look

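With all libraries, the genotype difference of mmu-mir-181d was −5.27 on water and 4.04 on alcohol. All 3 TLR4-KO libraries (44.7, 50.6 and 49.2) were below the WT mean of 53.4, and all 3 TLR4-KO + EtOH libraries (62.0, 54.3 and 53.2) were above the WT + EtOH mean of 52.5. The difference between the genotype differences, which equals the difference between the alcohol effects, was 9.31 on the score scale, with an adjusted limma p of 0.337 and a range of 0.157 to 0.572 over the alternatives. It did not pass the threshold. The opposite directions rest on the replicate 1 libraries. Without all 4 of them the genotype difference was −3.08 on water and −0.239 on alcohol, the same direction, and the difference between them was 2.84. Without TLR4-KO + EtOH replicate 1 alone, the genotype difference on alcohol was 1.31.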

How the results depend on the processing

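As deposited, no member passed in any contrast. Every alternative that called 1 member called mmu-mir-181c. This happened for TLR4-KO against WT under median centring (adjusted p = 0.0496 in limma), with only the compared groups fitted (0.0434) and with eBayes with a trend (0.0498). It happened for TLR4-KO + EtOH against WT under quantile normalization (0.0454), median centring (0.0423), only the compared groups (0.0229) and the trend (0.0405). With 1 library left out, the count of members called ranged from 0 to 1 in each of the 3 comparisons against WT, for the difference of the alcohol effects (−4.62, adjusted limma p of 0.0391 without WT + EtOH replicate 1) and for the F test. Without all replicate 1 libraries, a choice made after seeing the data, 1 member was called in each of the 3 comparisons against WT. Alcohol in TLR4-KO and genotype under alcohol gave 0 in every alternative run. The cause was not tested.

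The pairing of libraries by replicate number was not settled. The correlation of deviations had a median of 0.113 over 18 pairs with the same number (−0.109 to 0.153, over 0.1 in 10) and of −0.0376 over 36 pairs with different numbers (over 0.1 in 4). Not every library correlated best with its own number, and every pair was over 0.1 only between TLR4-KO and TLR4-KO + EtOH, where the block changed no call of a member. With the number as a replicate block, 1 member was called in TLR4-KO (adjusted limma p of 0.0408) and 1 in TLR4-KO + EtOH (0.0369) against WT, and 0 in the other contrasts. Over all precursors the block moved the calls from 15 to 24, from 11 to 19 and, for the difference of the alcohol effects, from 7 to 3.

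Of 524 values of differences, 481 kept direction and call, 18 passed only in the alternative and 25 changed sign, none of them called. With copies merged, the difference of mmu-mir-181b-2 in WT + EtOH against WT was −0.189 and that of mmu-mir-181b-1 in TLR4-KO against WT 0.315. Without single libraries, mmu-mir-181b-1 ranged from −1.50 to 0.551 in WT + EtOH and from −1.51 to 0.771 in TLR4-KO, mmu-mir-181b-2 from −0.360 to 1.22 in WT + EtOH, and mmu-mir-181d from −1.80 to 0.581 in WT + EtOH, all against WT. mmu-mir-181c ranged from −0.109 to 0.806 for alcohol in TLR4-KO and from −0.109 to 1.88 for genotype under alcohol, and mmu-mir-181b-2 from −0.320 to 1.26 for the difference of the alcohol effects. Without all replicate 1 libraries, mmu-mir-181b-1 was 1.63 in WT + EtOH, 2.05 in TLR4-KO, −0.0229 for alcohol in TLR4-KO and −1.65 for the difference of the alcohol effects. mmu-mir-181b-2 was then −0.345 and −2.35 for the last 2, mmu-mir-181c −0.336 for alcohol in TLR4-KO and for genotype under alcohol, and mmu-mir-181d 1.02 in WT + EtOH and −0.239 for genotype under alcohol. Scores close to ranks, pools of mice and 3 libraries per group limit all of these values. Under median centring the SD of both miR-181a copies was 0.0903.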
